A study of Mus musculus with 9 samples.

Results

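Of 21418 protein-coding genes annotated on mouse chromosomes 1 to 19, 7124 had no H3K27ac island within 1 kb of any annotated transcription start site (TSS), in either the wild-type (WT) or the Tcf1/Lef1-deficient (dKO) list of naive CD8+ T cells. These genes, called members below, were selected on the island calls themselves, so their lack of a promoter island is a description and no finding. They made up 33.3% of all autosomal protein-coding genes. The other 14294 genes had an island at a promoter in at least 1 list, and in 13980 of them an island lay over a TSS. The libraries came from GFP+ TCRbeta+ CD62Lhi CD44lo-med CD8+ cells sorted from spleen, 4 H3K27ac samples from WT mice and 3 from Tcf1-/-Lef1-/- mice, with 1 input sample per genotype. Both genotypes carried the hCD2-Cre transgene, which is active mainly in mature T cells, and a Rosa26-GFP reporter that marks cells in which Cre has acted, so the GFP+ gate selects the recombined cells in which the floxed Tcf7 and Lef1 genes of the dKO mice were deleted. The labels give no age. The samples of a genotype were pooled before islands were called, so each genotype is 1 list with no replicate spread, and no difference between genotypes below carries a test.

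H3K27ac, acetylation of lysine on histone H3, marks the nucleosomes beside active promoters and active enhancers. Promoters dense in CpG dinucleotides are found at most widely used genes and at many regulators of development, whereas promoters poor in CpG are typical of genes used in a single tissue. Tcf1 and Lef1, encoded by Tcf7 and Lef1, are HMG-box transcription factors that act in T cell development and identity. An island is a stretch in which reads were enriched over the background, and no island at a promoter means only that none was called there.

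The 250 bases before the annotated TSS are shown for 5 members that stand for different tissues, and for Cd3e, a T cell gene with an island over its TSS, as the contrast. Letters are from the mm9 build (NCBIM37), 5′ to 3′ on the strand of the gene, with each CG dinucleotide in capitals.
Alb, serum albumin of liver, chr5:90889665-90889914, plus strand: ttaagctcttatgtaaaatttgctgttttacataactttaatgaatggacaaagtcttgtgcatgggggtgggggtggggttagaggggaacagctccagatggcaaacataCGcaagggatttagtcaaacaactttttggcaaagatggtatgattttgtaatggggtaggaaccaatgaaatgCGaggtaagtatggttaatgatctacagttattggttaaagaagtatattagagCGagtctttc
Hbb-b1, a beta globin of red cells, chr7:110976611-110976860, minus strand: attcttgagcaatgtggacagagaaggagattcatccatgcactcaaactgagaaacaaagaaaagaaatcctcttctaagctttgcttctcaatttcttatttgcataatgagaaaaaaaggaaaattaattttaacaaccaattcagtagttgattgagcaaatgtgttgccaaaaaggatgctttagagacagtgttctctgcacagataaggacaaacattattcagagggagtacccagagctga
Krt14, a keratin of basal epidermis, chr11:100068863-100069112, minus strand: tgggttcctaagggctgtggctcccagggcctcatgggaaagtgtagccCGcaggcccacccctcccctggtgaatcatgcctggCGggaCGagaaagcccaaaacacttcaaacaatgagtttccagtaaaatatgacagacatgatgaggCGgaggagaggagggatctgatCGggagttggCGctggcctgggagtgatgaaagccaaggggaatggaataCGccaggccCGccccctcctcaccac
Pdx1, a homeodomain factor of the pancreas, chr5:148081285-148081534, plus strand: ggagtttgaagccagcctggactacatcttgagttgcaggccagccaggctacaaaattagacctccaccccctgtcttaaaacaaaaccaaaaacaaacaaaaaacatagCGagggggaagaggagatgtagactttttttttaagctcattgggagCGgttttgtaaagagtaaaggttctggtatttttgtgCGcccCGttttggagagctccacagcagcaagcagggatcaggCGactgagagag
Neurod1, a neural and endocrine bHLH factor, chr2:79296909-79297158, minus strand: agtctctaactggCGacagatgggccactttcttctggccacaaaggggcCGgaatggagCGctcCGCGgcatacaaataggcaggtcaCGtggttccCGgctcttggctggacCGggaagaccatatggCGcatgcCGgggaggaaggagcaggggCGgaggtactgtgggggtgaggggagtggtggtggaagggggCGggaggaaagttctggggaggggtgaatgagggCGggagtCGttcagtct
Cd3e, a chain of the T cell receptor complex, chr9:44817674-44817923, minus strand: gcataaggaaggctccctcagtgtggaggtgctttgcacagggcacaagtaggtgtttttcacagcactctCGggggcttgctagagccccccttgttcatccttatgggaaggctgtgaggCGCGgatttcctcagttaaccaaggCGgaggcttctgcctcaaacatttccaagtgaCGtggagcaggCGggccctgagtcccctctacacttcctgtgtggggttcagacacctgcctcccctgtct
Neurod1 held the most CG dinucleotides of the 6 stretches, with 14, and Hbb-b1 held 0. Krt14 held 8, Cd3e held 6, Pdx1 held 5 and Alb held 3. Cd3e, with a promoter island, was thus no richer in CG than Krt14, which lay 69.5 kb from the nearest island.

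The window of 1 kb cut through a continuous range of distances. Just outside it lay C4b at 1010 bp, Fam163b at 1011 bp, Smpd3 at 1019 bp, Actbl2 at 1021 bp and Gm11437 at 1023 bp. Just inside it, and so not members, lay Stra8 at 987 bp, Dcst1 and Gm17544 at 984 bp each, Cpn2 at 983 bp and Gm7889 at 978 bp. Between 1001 and 1200 bp there were 61 members, and between 801 and 1000 bp there were 46 genes with a promoter island.

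The labelled cell type was checked against its markers. None of 20 T cell markers was a member, and all 20 (among them Cd3d, Cd3e, Cd3g, Cd8a, Cd8b1, Tcf7, Lef1, Il7r and Ccr7) had a promoter island in each list. None of the 4 CD4 and regulatory T cell (Treg) genes found, Cd4, Zbtb7b, Il2ra and Ctla4, was a member. All 4 had a promoter island in each list, so these islands do not tell CD8+ from CD4+ T cells. Genes of other blood cells were less uniform. Among 12 effector and NK genes the members were Klrk1 and Ncr1, both receptors of NK cells. Among 10 B cell genes the only member was Ebf1, a factor of early B cells, so 9 B cell genes had a promoter island. All 12 myeloid genes had one, 12 of them in the dKO list and 8 in the WT list. Siglech, Cd209a and Xcr1 were members among 8 dendritic cell genes. Pf4, Hbb-b1, Epor and Hba-a1 were members among 7 erythroid and platelet genes. Whether cells of other types were present in the sort was not tested.

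Large families of genes used outside the immune system supplied many of the members. Receptors for odours, pheromones and tastes lacked promoter islands most completely, with 1409 of 1486 genes (94.8%) lacking a promoter island. All 124 Vmn2r and all 15 Taar genes were members, as were 204 of 206 Vmn1r genes, 34 of 35 Tas2r genes and 1032 of 1106 Olfr genes. The 74 Olfr genes outside the members had an island within 1 kb. Families of skin and epithelium gave 143 of 170 genes (84.1%). In this group all 34 Lce and Sprr genes of the cornified envelope, 45 of 46 Krtap genes of hair and 45 of 51 keratins were members, but only 12 of 26 claudins of tight junctions. The 6 keratins with a promoter island were Krt7, Krt8, Krt18, Krt24, Krt80 and Krt222.

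**Figure D1:**
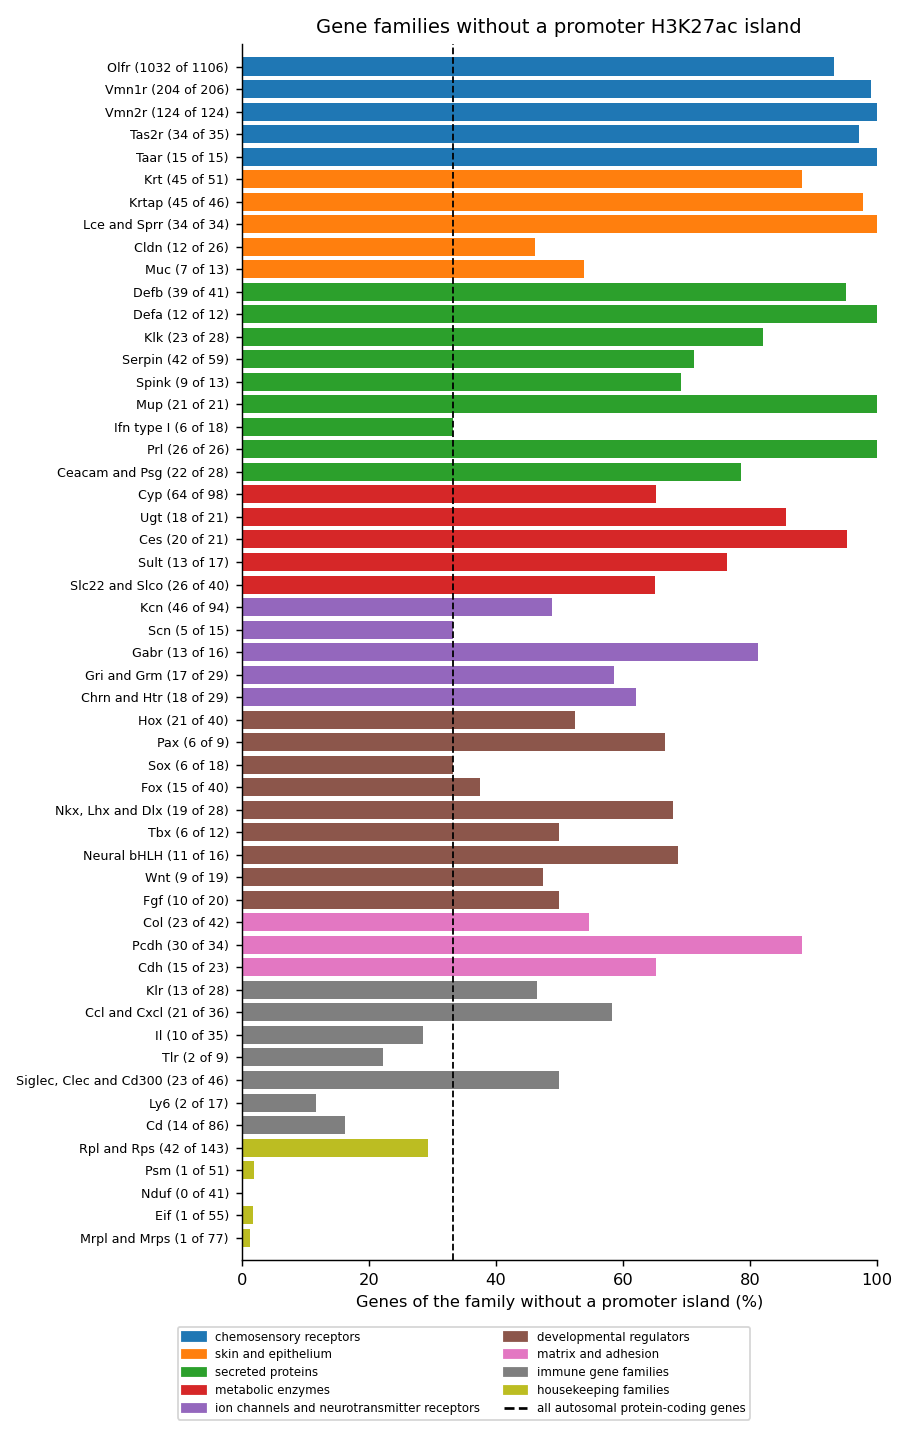
Percent of the genes of each family that had no H3K27ac island within 1 kb of a TSS in either list (bars, coloured by group, with members of genes in brackets), and the share over all autosomal protein-coding genes (dashed line, 33.3%). Chemosensory, cornified envelope, prolactin and urinary protein families reach or approach the right edge, and the proteasome, Nduf, Eif and mitochondrial ribosome families sit near 0.

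Secreted proteins and metabolic enzymes followed. All 26 prolactin-family genes, all 21 Mup genes of the major urinary proteins, which carry pheromones, and all 12 alpha-defensins were members, with 39 of 41 beta-defensins. The Mup and alpha-defensin promoters are largely repeated sequence, as given below, so few uniquely mapped reads could lie there. Kallikreins gave 23 of 28 and serpins, the serine protease inhibitors, 42 of 59. Among enzymes and transporters of liver and kidney, 20 of 21 carboxylesterases, 18 of 21 glucuronosyltransferases, 13 of 17 sulfotransferases and 64 of 98 cytochromes P450 were members. The type I interferon symbols gave 6 of 18 (33.3%), the same share as all genes, in a set that also holds the receptor genes Ifnar1 and Ifnar2.

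Families of neurons and of development were split. Potassium channels gave 46 of 94 members, GABA receptor subunits 13 of 16, glutamate receptors 17 of 29 and voltage-gated sodium channels 5 of 15. Developmental regulators gave 113 of 214 (52.8%), among them 11 of 16 neural bHLH genes, 15 of 40 Fox and 6 of 18 Sox genes. The sodium channels and the Sox genes, at 33.3% each, had the same share as all genes, and the Fox genes were near it (37.5%). Among adhesion genes, 30 of 34 protocadherins and 15 of 23 cadherins were members.

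Immune families together lay at the background, with 85 of 254 members (33.5%), and differed among themselves. Of the genes named for CD antigens 14 of 86 were members, 7 of them Cd209 lectins. Interleukins gave 10 of 35, Ly6 genes 2 of 17 and Tlr genes 2 of 9 (Tlr4 and Tlr11). Chemokines of the Ccl and Cxcl families gave 21 of 36, and 19 of these had no island in the gene body or 50 kb upstream either. Housekeeping families were at the other end: 0 of 41 Nduf genes of respiratory complex I, 1 of 51 proteasome genes, 1 of 55 translation initiation genes and 1 of 77 mitochondrial ribosome genes were members. The proteasome and mitochondrial ribosome members were Psme2b-ps and Mrps36-ps1, whose symbols mark pseudogenes. Ribosomal protein symbols gave 42 of 143, of which 39 came from the 54 symbols marked as pseudogenes and 3 from the other 89.

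Predicted genes with Gm symbols were members in 1344 of 1855 cases (72.5%), and genes with Rik symbols in 422 of 1377 (30.6%). With both kinds left out, 5358 of 18186 genes (29.5%) were members. Of all members, 2996 fell in no listed family.

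Genes that define single organs were often members, with exceptions. Of 62 such genes found in the annotation, 40 were members (64.5%, against 33.3% of all genes). Of the 40, 22 had an island in the gene body or 50 kb upstream and 18 had none, against 67.3% of all members with none. All 5 skin genes, Lor, Flg, Krt5, Krt10 and Krt14, were members (Flg has several gene entries). Of 6 liver genes Alb, Apoa1, Cyp7a1, Fgb and Ttr were members, and Ahsg was not. Of 6 pancreas genes Gcg, Ins1, Pdx1 and Cpa1 were members, but Ins2 and Cela1 were not. Brain gave 5 of 7 members, lung 3 of 4, kidney 3 of 4 and retina 2 of 3. Shares were smaller for intestine (2 of 5), heart and muscle (4 of 8) and germ cells (3 of 6). They were also smaller for pituitary and hypothalamus (2 of 4) and for fat and bone (2 of 4). The distance from the nearest island varied widely within these lists. Lor, a cornified envelope protein, lay 1386337 bp away and the hormone gene Prl 1251755 bp away, whereas Sftpc of lung lay at 1088 bp and Gfap of astrocytes at 1245 bp.

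Members lay together in the genome. Runs of at least 10 consecutive members held 2807 of them (39.4%) in 106 runs, while 1068 members had no member as a neighbour. The longest run held 227 genes on chr2:84976517-90122730, 221 of them Olfr genes. Across its 5.15 Mb there was no WT island and 1 dKO island of 176 counts. A run of 107 genes on chromosome 7 (4.29 Mb), mostly Vmn1r and Gm genes, had no island in either list, nor had the 60 genes of 2.72 Mb on chromosome 3 with the Lce and Sprr genes. A run of 81 genes on chromosome 11 (0.954 Mb) with 25 keratins and 22 Krtap genes had 4 WT islands with 1947 counts and 3 dKO islands with 751 counts. The share of members ranged over chromosomes from 22.0% on chromosome 11 to 47.2% on chromosome 14, which carries 2 of the runs of at least 60 genes, largely of Gm symbols.

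Some member promoters held little unique sequence, on which the uniquely mapped reads of these lists depend. The share of sequences of 32 bases within 1 kb of the main TSS that occur once in the genome had a median of 95.5% in members and 99.1% in the other genes. It was below 50% in 1121 members (15.7%) and in 148 other genes (1.04%). Among genes with at least 90% unique sequence, 4362 of 17137 (25.5%) were members, and among those below 50%, 1121 of 1269 (88.3%). In the run of 107 genes on chromosome 7 the median was 0%, and in the run of 101 genes on chromosome 14 it was 1.62%. Olfr members had a median of 89.7%, Vmn2r members 75.8% and Vmn1r members 68.5%, and developmental regulators among the members 100%. The part of read mapping in the lack of islands was not tested.

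The promoters of members were poor in CpG. Over 1 kb centred on the main TSS, the observed to expected CpG ratio had a median of 0.224 in members and 0.681 in the other genes, and GC content a median of 45.9% and 57.7%. By the rule of a ratio of at least 0.6 and a GC content of at least 50%, 1117 members (15.7%) and 8486 other genes (59.4%) were CpG-rich. The share of members fell with each step of the ratio, from 69.0% of genes below 0.2 through 31.1% between 0.4 and 0.6 to 7.57% at 1 or above. This scale was not part of the rule that chose the members.

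**Figure D2:**
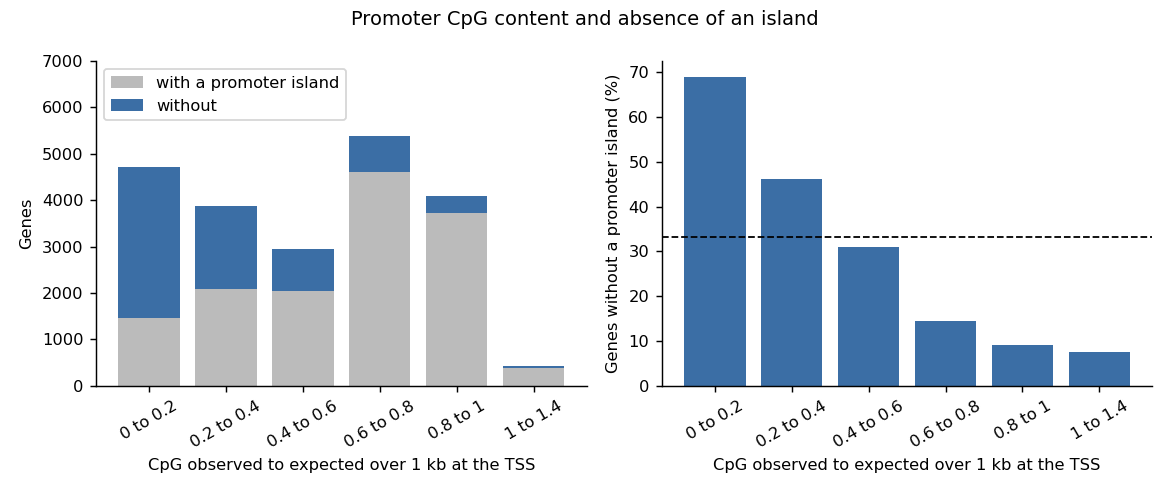
Left, autosomal protein-coding genes with (grey) and without (blue) a promoter island by the CpG observed to expected ratio over 1 kb at the main TSS. Right, percent of the genes of each bin without a promoter island, with the share over all genes as a dashed line (33.3%); the bars fall from 69.0% to 7.57%.

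Among the listed families, CpG-rich members were unevenly spread. Of the 1117 CpG-rich members, however, 835 were in no listed family, and their kinds are not described here. Of 113 developmental regulators among the members, 76 were CpG-rich (67.3%), including 5 of 6 Pax and 8 of 9 Wnt genes. Ion channels and neurotransmitter receptors gave 38 of 99 (38.4%). In contrast, 1 of 1409 chemosensory receptor members, 0 of 200 secreted protein members and 2 of 143 skin and epithelium members were CpG-rich. Gad1, the enzyme that makes GABA, Neurod1 and Nkx2-1, a lung and thyroid factor, were CpG-rich members of the organ lists.

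Short motifs were counted on both strands in the 250 bases before the TSS. TATAAA, the core of the TATA box, was found in 22.3% of members, 7.59% of the other genes and 12.5% of all. It was in 25.4% of members that were not CpG-rich and 5.55% of those that were. GGGCGG, a GC box, was in 17.9% of members, 51.5% of the other genes and 40.3% of all. CTTTGAT, a form of the motif that Tcf and Lef proteins bind, was in 4.17% of members, 2.41% of the other genes and 2.99% of all, and CCAAT in 34.7%, 34.4% and 34.5%. None of the 6 stretches printed above held TATAAA.

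The nearest island of either list lay a median of 98.2 kb from a member's TSS, with the middle 50% of members between 20.8 and 342 kb. Within 5 kb there were 722 members, and beyond 1 Mb there were 578. The farthest were Cdh10, a neural cadherin, at 5891102 bp and the protocadherin Pcdh9 at 4980850 bp, then Gm2888, Gm2897 and the acyl-CoA thioesterase gene Acot10 at 4558999, 4539696 and 4520496 bp. CpG-rich members lay nearer to an island, at a median of 54.2 kb, than the others at 114 kb. Family medians ran from 3.26 kb for the Klr genes of NK receptors and 7.34 kb for interleukins to 834 kb for Lce and Sprr and 1114 kb for cadherins. An island lay within 5 kb in both lists for 345 members (4.84%, against 65.6% of all genes), in the dKO list only for 247 (3.47%, against 2.51%) and in the WT list only for 130 (1.82%, against 1.97%). Members were chosen for having no island within 1 kb, so the rule largely sets the gap between 4.84% and 65.6%. Over all distances the nearer island was a WT island in 3175 members (44.6%) and a dKO island in 2925 (41.1%).

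**Figure D3:**
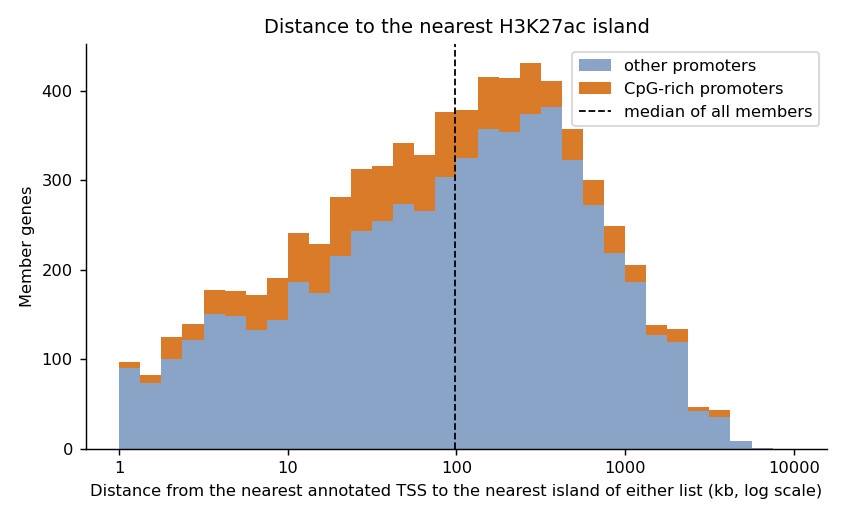
Members by the distance from their nearest TSS to the nearest island of either list (log axis, kb), stacked by CpG-rich (orange) and other promoters (blue), with the median of 98.2 kb as a dashed line. The counts peak between 100 and 500 kb, a range that held 2257 members.

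Most members had no island in their surroundings either. An island was called linked where it overlapped the gene body or the 50 kb upstream of it. No linked island was found in 4793 members (67.3%), which are all the genes of this kind and 22.4% of the autosomal protein-coding genes. Linked islands of both lists were found in 1894 members (26.6%, against 74.9% of all genes). A further 256 members (3.59%) had linked islands in the dKO list only and 181 (2.54%) in the WT list only, against 1.45% and 1.23% of all genes. The order of these counts turned when islands under 200 counts were left out, to 158 and 325. A limit of 200 counts is a larger share of the dKO list, which had fewer counts in all. With a limit scaled to the total counts of each list instead, the order held, at 221 and 188. Every gene with a promoter island had a linked island, so the rule that chose the members sets these shares in part. Inside the gene body, 523 members (7.34%) had islands of both lists and 6261 (87.9%) had none, against 65.8% and 29.6% of all genes. In 197 members (2.77%) the body had dKO islands only and in 143 (2.01%) WT islands only, near the 2.61% and 1.99% of all genes. Among CpG-rich members 46.0% had a linked island, and among the others 30.2%.

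**Figure D4:**
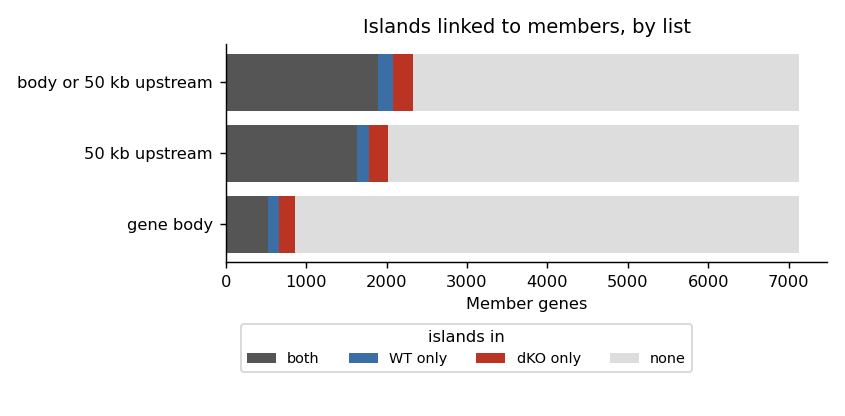
Numbers of members with islands in both lists (dark grey), WT only (blue), dKO only (red) or none (light grey), for the gene body with 50 kb upstream, the upstream stretch alone and the gene body alone. The light grey class is the longest in each bar, with 4793, 5107 and 6261 of 7124 members.

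Linked islands joined across lists where they shared at least 1 bp gave 7194 regions, of which 1588 (22.1%) lay within 1 kb of a TSS of another protein-coding gene and 800 (11.1%) were linked to more than 1 member. The values of neighbouring members are therefore shared in part. Of the 5606 regions away from any TSS, 2428 (43.3%) had islands in both lists, 2160 (38.5%) in the dKO list only and 1018 (18.2%) in the WT list only. Over all 59983 autosomal regions away from a TSS, dKO only made up 33.0% and WT only 14.4%. The regions linked to members had a median of 382 WT and 227 dKO counts per region with an island, and the regions not linked to members 439 and 259.

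The lists differed in depth and in the number of islands. The WT list had 65563 islands with 82668007 counts and the dKO list 82213 islands with 57665047, so dKO islands were more and had fewer counts each (a median of 292, against 531). The smallest island had 58 counts in the WT list and 43 in the dKO list. A single island was the only one linked in 148 of the 181 members with WT islands alone and in 179 of the 256 with dKO islands alone, with medians of 311 and 218 counts in all. The part of list depth in such absences was not tested, and with 1 pooled list per genotype depth and genotype cannot be told apart.

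Among members with linked islands in the WT list alone, Pmp22, a myelin protein, had the most counts, 3440 in 1 island over the gene on chr11:62950401-62972600. Hist1h2ba, a testis histone gene, had 5 islands with 3240 counts upstream. Igfbp1, a liver-secreted binding protein of insulin-like growth factors, had 3 with 3156 counts, of which the island on chr11:7058201-7062000 lay within 1 kb of a TSS of Adcy1. 4930432M17Rik had 3 islands with 2822 counts. Olfr155 had 3 with 1682 counts, all within 1 kb of a TSS of the neighbouring Olfr156 or Olfr157. 4930432M17Rik had dKO islands of 396 counts in a region that ran beyond its linked stretch. The island nearest to a TSS of Olfr155 was a dKO island at 2637 bp, past the end of the gene and so not linked, and nearer than any WT island (9637 bp).

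With linked islands in the dKO list alone, Gstm5, a glutathione transferase, had 4 islands with 3728 counts, the largest on chr3:107642201-107661800 with 2740. Bmp6, a growth factor of the BMP family, had 3 islands with 2793 counts at its far end, and 2234 of these lay in an island within 1 kb of a TSS of Txndc5. Pparg, the nuclear receptor of fat cell differentiation, had 11 islands with 2740 counts, 1951 of them inside the gene. None of the 11 lay within 1 kb of a TSS, and the most counts, 546, were in an intron on chr6:115430201-115436000. Chgb, a granin of endocrine cells, had 3 with 2462 counts, and Tmem174 had 4 with 2197 counts. The regions around Chgb and Tmem174 did hold WT islands just beyond the linked stretch, with 2120 and 1146 counts. In the organ lists, Muc2 of gut mucus (1270 counts), Neurod1 (303), Acta1 of skeletal muscle (296) and Aqp2 of kidney (77) had dKO islands alone, and Th, the enzyme of catecholamine synthesis, had WT islands alone (236).

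For the 1894 members with linked islands in both lists, dKO and WT counts were each divided by the total of their list. The log2 ratio of dKO to WT had a median of -0.11 in members, with a spread over genes of 0.93 (SD), and a median of -0.01 over all 16051 genes with linked islands in both lists. At a ratio of 1.5, 339 members (17.9%) were higher in dKO and 408 (21.5%) lower, against 11.7% and 10.3% of all such genes. The order of the member counts turned with scaling to islands shared by both lists (378 higher, 331 lower) and without islands at another gene's TSS (443 higher, 351 lower), so no direction is read from them. Members had fewer linked counts, with medians of 1959 in WT and 1329 in dKO against 7904 and 5578 in genes with a promoter island. Per covered kb the picture was narrower: the SD was 0.34, and 11 members were higher (0.581%) and 186 lower (9.82%), close to the 0.361% and 9.28% of all such genes. In these lists the differences in counts thus went mostly with how much sequence the islands covered. Islands are called where reads are dense, so the calling itself limits how far counts per covered kb can vary. Whether the signal changed in width or in strength was not tested. Over regions away from a TSS, 12.7% of those linked to members with islands in both lists were higher in dKO and 20.1% lower, against 13.5% and 15.4% of all such regions.

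**Figure D5:**
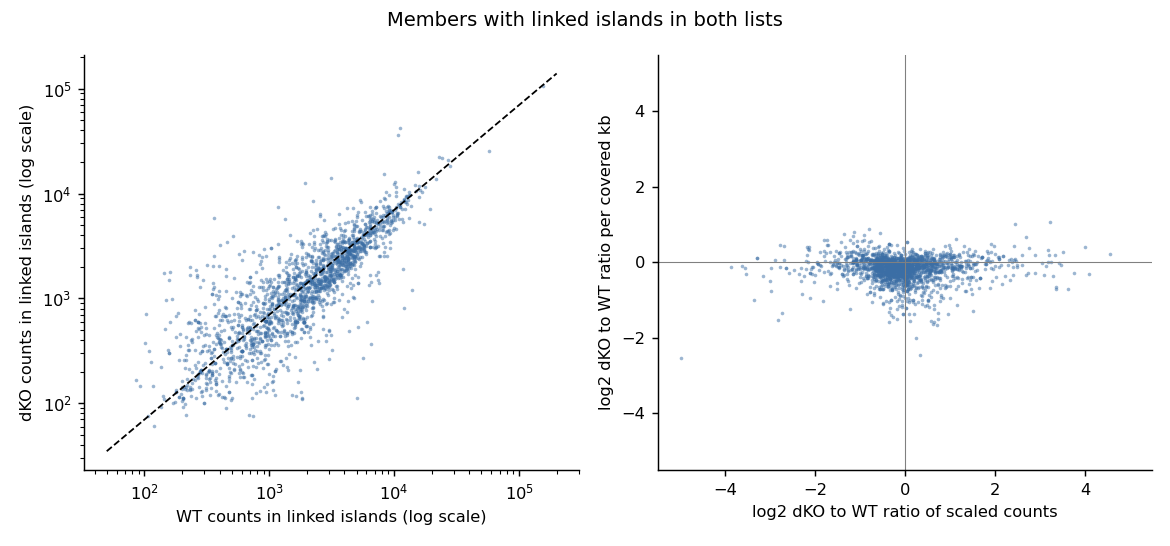
Left, WT and dKO counts in linked islands for the 1894 members with islands in both lists (log axes; dashed line, the ratio of the list totals). Right, log2 dKO to WT ratio of scaled counts against the ratio per covered kb for the same members, with equal axes; the points spread along the horizontal axis (SD 0.93) more than along the vertical one (SD 0.34).

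The highest ratios belonged to members with 1 WT island and several in dKO. Cpvl, a carboxypeptidase-like gene of macrophages, had 361 WT counts in 1 island and 5905 dKO counts in 15, a log2 ratio of 4.55 (95% counting interval 4.40 to 4.70). Per covered kb the value was 0.21, so the dKO islands were more and not denser. 1600015I10Rik had 145 and 1732 counts, with a log2 ratio of 4.10 and of -0.31 per kb. Gm16494 (158 and 1490 counts) had 3.76 and -0.28, and the keratin Krt78 (232 and 2004 counts) had 3.63 and -0.71. Madcam1, a vascular addressin that lymphocytes bind, had 160 WT and 1786 dKO counts in linked islands and a log2 ratio of 4.0. A further WT island of its main region lay beyond the linked stretch, and with whole regions counted Madcam1 had 1775 and 1786 counts and a log2 ratio of 0.53. Of these values Cpvl, 1600015I10Rik and Krt78 depended on the reach of the link, with log2 ratios of 2.04, 0.85 and 1.95 at 100 kb upstream.

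The lowest ratios belonged to members with more WT than dKO counts. Slit3, an axon guidance ligand, had 10 WT islands with 6468 counts and 2 dKO islands with 366, all away from any TSS, a log2 ratio of -3.62 (95% counting interval -3.78 to -3.47) and of -0.10 per kb. Its WT counts were highest in an intron on chr11:35132601-35145200 (2213 counts), where the dKO list had no island. Chga, a granin, had 1844 WT and 109 dKO counts (-3.56, and -0.15 per kb), and Gjd2, a neuronal connexin, 1836 and 111 (-3.53, and -0.30 per kb). At 100 kb upstream Chga had -0.57 and Gjd2 -0.64. Cdh5, the cadherin of endothelium, had 5585 and 268 counts and a log2 ratio of -3.86, which was -1.07 with whole regions counted and -1.16 at 100 kb upstream. Zdhhc2, a palmitoyltransferase, had the lowest value, -4.98 (5056 and 112 counts). Its only region is at the promoters of Cnot7 and Vps37a, is 1 island in WT and 2 in dKO, and gave -0.71 as a whole.

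The members with the most linked counts all had a linked region at the promoter of a neighbouring gene. Olfr1371, 6330403A02Rik and 1700008P20Rik were linked to broad regions of this kind, although 6 of the 7 regions of 6330403A02Rik lay away from any TSS. Fgfr2 and Nmnat2 also had most of their regions away from any TSS. The Fgfr2 regions with many counts nevertheless included those at Chst15 and Fam53b (29201 and 21839 WT counts). The entry for Fgfr2, a growth factor receptor, spans 3009 kb in this annotation and took in 87 WT and 126 dKO islands (155849 and 105485 counts, log2 ratio -0.04), with 90 of its 116 regions away from any TSS and others at Tacc2, Chst15 and Fam53b. Olfr1371 was linked to the broad islands of Skp1a and of Tcf7, which is itself deleted in dKO, with 57447 and 25533 counts (log2 ratio -0.65). With whole regions counted Olfr1371 had 70901 and 54033 counts and a log2 ratio of 0.13. 6330403A02Rik lay beside Itpkb, with 11173 and 42530 counts. 1700008P20Rik was linked to an upstream region with Kcnn4, Plaur and Cadm4 and had 10691 and 36461 linked counts. The gene lay outside that region, with its nearest island at 13584 bp. The log2 ratios of 6330403A02Rik (2.45) and 1700008P20Rik (2.29) became -0.10 and -0.02 with whole regions counted, since a broad WT domain was split at other points than the dKO one. Nmnat2, an enzyme of NAD synthesis in axons, had 18 of its 19 regions away from any TSS, with 27119 and 20864 counts and a log2 ratio of 0.14, and 22083 of the WT counts lay in islands that overlap its gene body.

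Members of the Klr and Hox families mostly had linked islands. Of 13 Klr members 12 had linked islands in both lists, against 26.6% of all members and 74.9% of all genes. Klrk1, which encodes NKG2D, had 4054 WT and 2888 dKO counts (log2 ratio 0.03), and Klrg1, an inhibitory receptor of effector cells, 5281 and 2857 (-0.37). The Klra genes of the Ly49 receptors ranged more widely, from -0.42 for Klra2 to 2.74 for Klra10 (277 and 1289 counts), and the Klr members had a median of 71.2% unique promoter sequence. Of 21 Hox members 17 had linked islands. The 19.0% of Hox members with none compares with 67.3% of all members and is near the 22.4% of all genes. In the Hoxd cluster 1 region of 600 WT and 312 dKO counts was shared by Hoxd9, Hoxd10, Hoxd11, Hoxd12 and Hoxd13 (-0.42 for each), and Hoxd1 had 954 and 151 counts (-2.14). Hoxc10, Hoxc11, Hoxc12 and Hoxc13 had none. Among interleukins Il13, a cytokine of type 2 immunity, had 937 WT and 2514 dKO counts (1.94, and 0.05 per kb), Il22 had 3791 and 3064 (0.21) and Il17f 4780 and 2102 (-0.67), while Il17a and Il7 had none. These genes were named after their values were seen.

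Lists of genes enriched in blood lineages, taken by name from the study, were compared with the members. A gene can stand on several of these lists, as Cacna2d4 does on the pan-T and plasmacytoid dendritic lists. Of 142 pan-T genes found, 2 were members (1.41%), Cacna2d4 and Ccdc164, against 33.3% of all genes. Naive CD8 genes gave 1 of 44, Klrk1, naive CD4 genes 0 of 29, effector CD8 genes 10 of 298 (3.36%) and Treg genes 9 of 138 (6.52%). Lists of other lineages had more members, with 29 of 243 B cell (11.9%), 27 of 226 NK (11.9%), 51 of 373 gamma-delta T (13.7%), 33 of 190 conventional dendritic (17.4%), 116 of 544 granulocyte (21.3%), 51 of 238 plasmacytoid dendritic (21.4%) and 55 of 228 monocyte genes (24.1%). All of these shares were below 33.3%. Cacna2d4, a calcium channel subunit, had 10424 WT and 11472 dKO linked counts, with a log2 ratio of 0.66 and of -0.24 per kb. Members with the most linked counts were Lipc in the B cell list (5830 and 6711), Oprm1 in the granulocyte list (21467 and 13625) and Ptprk in the effector CD8 list (12843 and 8741).

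Genes whose RNA differed in dKO cells were seldom members. Of 282 upregulated genes found, 7 were members (2.48%), and of 236 downregulated genes 1 was (0.424%), against 33.3% of all genes. The downregulated member, Gm3002, had no linked island, and 0% of its promoter sequence was unique. These lists were made by the study from the same genotypes. The study required a minimum expression in the higher group, so silent genes are left out of them. Capn11, a testis calpain, had 8887 WT and 7568 dKO linked counts (log2 ratio 0.29). Nrp2, a semaphorin receptor with a CpG-rich promoter, had 5310 counts in 2 WT islands and 8752 in 14 dKO islands (1.24, and -0.15 per kb), and its nearest island lay at 14325 bp in dKO and 61259 bp in WT. Gnmt, a methyltransferase of liver, had 3268 and 4541 counts (0.99, and -0.93 per kb). Ppm1n had 8433 and 5485 counts (-0.10) and Igj, the joining chain of antibodies, 8068 and 4524 (-0.31). Ms4a2 had 288 and 116 counts (-0.79), and Trim52 had no linked island.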

How the data were processed

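H3K27ac ChIP-seq libraries of naive CD8+ T cells (4 WT, 3 dKO) and 1 input per genotype were aligned by the authors to mm9 with Bowtie2 (v2.2.5), and islands were called on the pooled replicates with SICER (v1.1). The deposited lists give whole-number read counts per island, with no scaling for depth or width. Island starts step by 200 bp and islands of a list lie at least 600 bp apart. The mapping quality and false discovery limits are not restated here, and whether duplicates were removed is not stated. A promoter without an island has no count, not a count of 0.

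Genes and TSSs were from GENCODE vM1 (NCBIM37). A member had no island of either list within 1 kb of any TSS. Islands were linked by an overlap of at least 1 bp with the gene body or 50 kb upstream. Ratios are of counts divided by list totals, with 95% Wilson intervals that cover counting error only, and were called at 1.5. The main TSS was that of the most transcripts. Python 3 scripts (numpy, pandas, numba) were tested on simulated data. The members and lists were chosen with earlier results of these data known. Genes with values were named by rule (most linked counts per class, highest and lowest ratio among members with at least 200 linked counts, farthest, and nearest to the window), and further genes only as examples of a family or list. The authors' gene lists were used by name, with older symbols matched. No test was possible with 1 pooled list per genotype. Inputs were not analysed here. The values of 1 gene family are not reported here.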

Additional observations from a re-analysis of the deposited data

How the results depend on the processing

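No paired analysis was possible because the samples of each genotype were pooled into 1 list, so replicate numbers have no values, and no sample could be left out. Of 17 alternatives, 16 were planned and the counting of whole merged regions was chosen after seeing the data. A window of 5 kb left 1261 members with linked islands in both lists and 204 higher in dKO. Islands of at least 200 counts gave 325 members with WT islands alone and 158 with dKO islands alone, which turned the order of these classes, and a median log2 ratio of -0.22. A limit scaled to the total counts of each list gave 188 and 221, which kept the order. With promoters at least 90% unique there were 4362 members, 2605 with no linked island and 23.6% CpG-rich. With 20 kb upstream 1198 members were linked in both lists. Without islands at another gene's TSS 392 had dKO islands alone and the median log2 ratio was 0.059. Per covered kb 11 members were higher and 186 lower, at a ratio of 2, 199 and 184, and in the gene body alone 136 and 138 of 523. The stricter CpG rule gave 7.64%. The other 95 recomputed summary values, with the 188 and 221 above among them, stayed within 1.5 times, or within the counting interval. Among named genes the log2 ratio reversed per covered kb for 1600015I10Rik (-0.31), Gm16494 (-0.28), Krt78 (-0.71) and 1700008P20Rik (-0.064). With whole regions it reversed for Olfr1371 (0.13), 6330403A02Rik (-0.10) and 1700008P20Rik (-0.023). Without islands at another TSS it reversed for Olfr1371 (3.59) and 6330403A02Rik (-0.73), and with 100 kb upstream for Olfr1371 (0.43). A further 41 values of named genes moved by more than their counting error and 35 did not. With 100 kb upstream Cpvl had 2.04, 1600015I10Rik 0.85, Krt78 1.95, Cdh5 -1.16, Chga -0.57 and Gjd2 -0.64. Scaling to islands shared by both lists shifted each ratio by 0.07, which turned the order of higher and lower members (378 and 331), as did leaving out islands at another TSS (443 and 351).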
